A study of Mus musculus with 6 samples.

Results

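The AP-1 family genes Fos, Fosb, Fosl1, Fosl2, Jun, Junb, Jund, Batf and Batf3 were read out by their symbols, and all 9 were listed among the 23183 genes of each table. The RNA came from primary ILC2 (group 2 innate lymphoid cells, tissue lymphocytes that lack rearranged antigen receptors and make type 2 cytokines) of the lungs of wild-type mice. They had been stimulated for 24 h with interleukin 2, interleukin 7 and interleukin 33, each at 10 ng/ml, in every sample. To these cultures either an IgG2b isotype control antibody (3 samples) or DTA-1, which activates the costimulatory receptor GITR (3 samples), was added. No sample without the cytokines or without an antibody was analysed here, and the labels used here give no age, sex or pooling of the mice. The labels do not say whether the samples came from separate animals or cultures, so the p-values rest on the spread among these libraries, and that spread may be technical.

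AP-1 is a family of transcription factors that bind DNA as pairs of basic leucine zipper (bZIP) proteins. Jun proteins can pair with one another or with Fos proteins, and Fos proteins need a Jun partner. Batf proteins lack the transactivation domain of Fos and Jun, pair with Jun proteins, and in lymphocytes bind composite sites together with the interferon regulatory factors Irf4 and Irf8. Fos, Fosb and Jun are immediate early genes whose transcripts are made in a short burst after stimulation and are quickly degraded, while Batf is known to be needed for effector programs of several lymphocyte types.

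The property that defines the family is the basic region, the stretch of each protein that contacts DNA. The coding stretch of its signature (asparagine, any pair of residues, a pair of alanines, any pair of residues, cysteine or serine, arginine) was found once in each of the 9 coding sequences of GENCODE M21 on GRCm38. The stretches are shown so that the genes can be compared. Each is 27 bases, 5′ to 3′, and capitals mark the bases shared by all 9 genes:
Fos, chr12:85475637-85475663, plus strand: AAtaagaTgGCtGCagccAagtGccGg
Fosb, chr7:19306595-19306621, minus strand: AAcaagcTgGCtGCagctAagtGcaGg
Fosl1, chr19:5454458-5454484, plus strand: AAcaagcTaGCaGCtgctAagtGcaGa
Fosl2, chr5:32150466-32150492, plus strand: AAcaagcTaGCtGCagccAagtGtcGg
Jun, chr4:95050453-95050479, minus strand: AAccgcaTtGCcGCctccAagtGccGg
Junb, chr8:84977581-84977607, minus strand: AAcaggcTgGCgGCcaccAagtGccGg
Jund, chr8:70699871-70699897, plus strand: AAccgcaTcGCcGCctccAaatGccGc
Batf, chr12:85689310-85689336, plus strand: AAtcgcaTcGCtGCccagAagaGccGa
Batf3, chr1:191100770-191100796, plus strand: AAccgggTtGCaGCtcagAggaGccGg
All 9 genes shared 10 of the 27 bases. Fos had 23 identical bases with Fosb and 15 with Batf3, Jun had 24 with Jund and 21 with Junb, and Batf had 19 with Batf3. Identity did not follow the families throughout. Junb had 21 identical bases with Fos and 19 with Jund, and Batf had 19 with Jun.

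The 9 genes also differ in a sequence linked to transcript turnover. Zfp36 family proteins bind the heptamer UAUUUAU in AU-rich 3′ UTRs and recruit the decay machinery. On the DNA strand of the transcript the heptamer TATTTAT occurred in the 3′ UTR of 6 of the 9 genes, against 30.6% of the 9718 tested genes with a 3′ UTR of at least 30 bases. Only the strand of the transcript was searched, and 3′ UTRs differ in length (4653 bases for Fosl2 and 310 bases for Batf3), so the counts are a description. The first heptamer of each gene, in capitals, is shown within 29 bases of its 3′ UTR on GRCm38:
Fos, chr12:85477103-85477131, plus strand: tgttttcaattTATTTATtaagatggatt
Fosb, chr7:19303326-19303354, minus strand: ccacccccagcTATTTATccctttcctgg
Fosl1, chr19:5455867-5455895, plus strand: agggcagctgcTATTTATtttcctaaaga
Fosl2, chr5:32156202-32156230, plus strand: aggcacttttcTATTTATcctcttttaag
Jun, chr4:95049079-95049107, minus strand: ttgcttgtgcaTATTTATaatagcgttcg
Jund, chr8:70700359-70700387, plus strand: cgattccgcccTATTTATgtttctactcg
Junb, Batf and Batf3 had no TATTTAT, and Batf and Batf3 also had no ATTTA, the core that 70.3% of tested genes with a 3′ UTR held. The heptamer overlaps both this core and the longer form TTATTTATT, which only Fos and Fosl2 held among the 9 genes.

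All libraries were similar in size. They held between 574195 and 606724 FPKM in all, and their depth, worked out from the smallest differences among low values, was about 18500000 to 20500000 fragments. That depth assumed GENCODE transcript lengths, and low values matched whole fragment numbers only in part (mean cosine 0.365 to 0.418). Fragment numbers below are therefore approximate. FPKM is a per-length level (fragments per kilobase of transcript, scaled to the size of the library), so levels can be compared between genes. ILC2 genes were expressed in every library, with Gata3 at 165 ± 47.1 and 179 ± 13.4 FPKM and Il1rl1, the interleukin 33 receptor gene, at 253 ± 53.2 and 182 ± 9.05 FPKM (isotype and DTA-1, mean ± SD, n = 3 each, as for all pairs of values below). All 12 genes of the ILC2 list were tested, with 2 higher and 3 lower at an unadjusted p under 0.05, beside 6.22% and 7.73% of all 10501 tested genes. The largest difference in that list was that of Klrg1, an inhibitory receptor gene, at 97.0, 115 and 79.8 FPKM with the isotype and 10.5, 43.6 and 48.1 FPKM with DTA-1 (limma adjusted p = 0.178). Of 57 marker genes of 9 other cell types in the files, 5 were tested and 8 were at 0 in every library. The most abundant marker of each list was Pecam1 for stroma and endothelium (19.9 to 43.8 FPKM), Cd3g for T cells (7.07 to 10.2), Cd79b for B cells (2.93 to 7.10), Cd68 for myeloid cells (2.40 to 4.16), Epcam for epithelium (1.09 to 4.34), Il22 for ILC3 (0.367 to 2.75), Prf1 for NK cells and ILC1 (0 to 0.719), Cma1 for mast cells and basophils (0 to 0.257) and Epx for eosinophils (0 to 0.0188). The summed level of the epithelial list was 3.89 to 4.65 FPKM with the isotype and 1.51 to 2.22 with DTA-1. Most of this sum was Epcam, the only gene of the list that was tested. Epcam measured 2.84, 4.34 and 4.24 FPKM with the isotype and 1.09, 1.85 and 1.61 FPKM with DTA-1. The difference is therefore mainly that of Epcam and not of the list, and its part in the results below was not tested. In bulk RNA, fewer cells with a transcript and less transcript per cell cannot be told apart.

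The AP-1 transcripts of these cells were mainly those of Junb and Batf. Junb averaged 305 FPKM over the 6 libraries and ranked 244 of 23183 listed genes. Batf averaged 213 FPKM and ranked 365, and Jund 94.9 FPKM and ranked 915. Jun (14.9 FPKM), Batf3 (13.5) and Fosl2 (8.46) formed a middle tier, Fosl1 (2.83) and Fos (1.34) a low one, and Fosb (0.209) was the lowest. Batf lay above Jund, Jund above Jun, Fosl2 above Fosl1 and Fos above Fosb in 6 of 6 libraries with no overlap of their ranges. Neighbours in the order whose ranges overlapped were Junb and Batf, with Junb the higher in 5 of 6 libraries, Jun and Batf3 (4 of 6), Batf3 and Fosl2 (6 of 6), and Fosl1 and Fos (5 of 6).

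**Figure D1:**
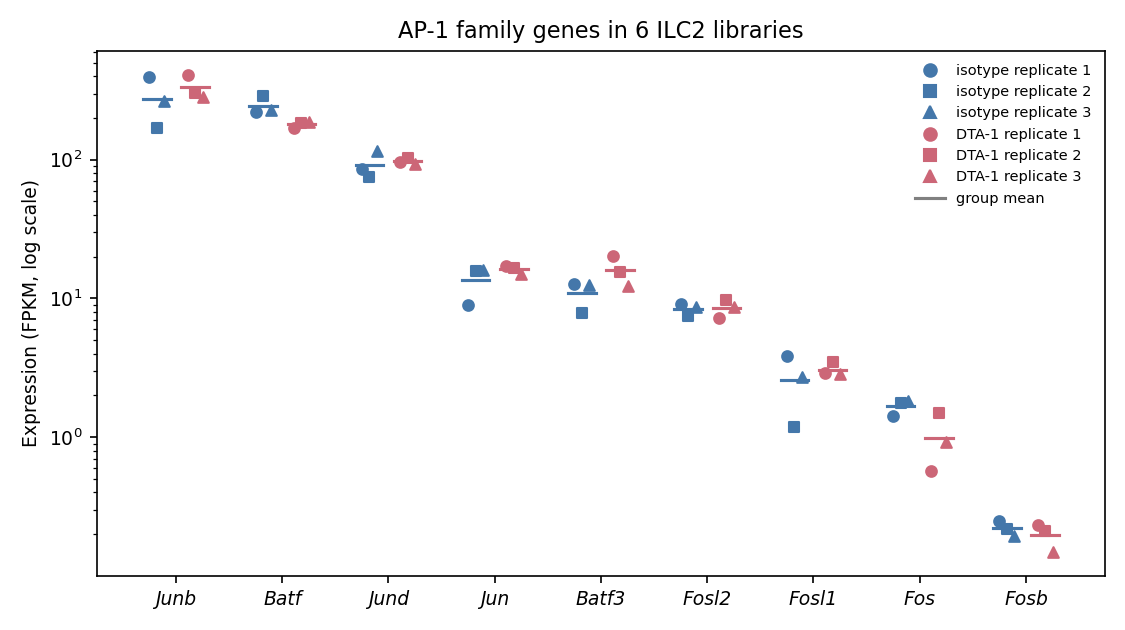
Expression of the 9 AP-1 family genes, ordered by mean, in FPKM on a log scale; each point is 1 library (3 isotype, 3 DTA-1) and bars are group means. Junb spans 170 to 411 FPKM and Batf 170 to 287, whereas Fosb stays at or under 0.250.

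None of the 8 tested members passed the threshold in either direction (limma on log2(FPKM + 1), adjusted p under 0.05), against 0.0286% of the 10501 tested genes higher, 0.00952% lower and 0.0381% in either direction. At an unadjusted p under 0.05, 0 members were higher and 2 were lower with DTA-1, Batf and Fos, where 6.22% of tested genes were higher and 7.73% lower (14.0% in all). Without isotype replicate 1, 2 members (Junb and Batf3) were higher and 2 lower at that p, beside 591 and 739 of 10406 tested genes. When any library other than isotype replicate 1 and DTA-1 replicate 2 was left out, 1 member was lower. In those fits 637 to 912 of the 10399 to 10428 tested genes were lower. Batf3 was also higher at that p without DTA-1 replicate 3 (514 of 10428 tested genes higher) and with quantile normalization (670 of 10497). With the title number as a replicate block Batf3 was higher and 2 members were lower, beside 655 and 922 of 10501 tested genes. With the library name number as the block, 1 member (Fosl1) was higher and 0 lower, beside 300 and 530 of 10501 tested genes. The groups did not overlap for 1 member, Batf, which was lower, against 11.2% of tested genes higher and 10.5% lower without overlap (21.6% in all). The median log2 fold change of the 8 members was 0.18, with 6 above 0 and 2 below, and that of all tested genes 0.014. The members' median was -0.05 when isotype replicate 2 was left out, and 0.07 when isotype replicate 1 was.

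Batf had the smallest p of the family. Its gene lies on chromosome 12 of GRCm38 (85686669 to 85709087, plus strand, 3 exons in the longest coding transcript). It measured 223, 287 and 227 FPKM in isotype replicates 1, 2 and 3 and 170, 183 and 186 FPKM in DTA-1 replicates 1, 2 and 3. Every DTA-1 library was below every isotype library, and the DTA-1 libraries lay closer together than the isotype libraries, whose highest was replicate 2. The means were 246 ± 35.9 and 179.7 ± 8.27 FPKM, 0.732 times the isotype level. The log2 fold change was -0.44 ± 0.13 (SE), with a 95% interval of -0.74 to -0.14, and the limma adjusted p was 0.186. Leaving out each library in turn gave log2 fold changes of -0.51 to -0.32, and the adjusted p ran from 0.0549 to 0.765 over all 18 alternatives. Cell-cycle transcripts moved with the groups beside Batf. All 10 S-phase genes of a list were lower without overlap (summed level 988 to 1436 FPKM with the isotype and 678 to 697 with DTA-1). A list of 10 mitosis genes, 8 of them lower without overlap, summed to 290 to 665 and 174 to 234 FPKM. Of all tested genes, 10.5% were lower without overlap. The part of these cell-cycle genes in the Batf difference was not tested.

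Batf3, the close relative of Batf known for its role in dendritic cell development, had a higher mean with DTA-1. It measured 12.7, 7.86 and 12.4 FPKM in isotype replicates 1 to 3 and 20.1, 15.5 and 12.3 FPKM in DTA-1 replicates 1 to 3. The groups overlapped, because DTA-1 replicate 3 lay just under isotype replicates 1 and 3. The log2 fold change was 0.50 ± 0.22 (95% interval -0.01 to 1.01, limma adjusted p = 0.368). Within each library, Batf was 17.5, 36.5 and 18.3 times Batf3 in isotype replicates 1 to 3 and 8.47, 11.8 and 15.1 times Batf3 in DTA-1 replicates 1 to 3. This ratio does not depend on scaling between libraries, and it did not overlap between the groups. It was chosen after the values were seen and is given without a test.

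Fos, the founding immediate early gene of the family, was scarce in every library. It measured 1.43, 1.77 and 1.83 FPKM in isotype replicates 1 to 3 and 0.574, 1.49 and 0.919 FPKM in DTA-1 replicates 1 to 3. Groups overlapped only through DTA-1 replicate 2, which lay above isotype replicate 1. The log2 fold change was -0.45 ± 0.18 (95% interval -0.87 to -0.02, limma adjusted p = 0.334), and the scale of log2(FPKM + 1) understates this change; the ratio of the means was 0.593. These levels correspond to about 24 to 77 fragments per library. Leaving out DTA-1 replicate 1 gave a log2 fold change of -0.29, and leaving out DTA-1 replicate 2 gave -0.62.

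The other Fos family genes showed no difference that passed the test. Fosb measured 0.250, 0.218 and 0.193 FPKM with the isotype and 0.235, 0.212 and 0.149 FPKM with DTA-1, about 12 to 18 fragments per library, and was below the filter for testing. Fosl1, which encodes Fra-1, measured 3.85, 1.19 and 2.70 FPKM in isotype replicates 1 to 3 and 2.91, 3.46 and 2.85 FPKM in DTA-1 replicates 1 to 3. The isotype libraries alone spanned 3.24-fold and enclosed all DTA-1 values, with isotype replicate 2 the lowest. Fosl1 had a log2 fold change of 0.26 (95% interval -0.35 to 0.87), and -0.06 without isotype replicate 2. Fosl2, which encodes Fra-2 and was the main Fos family transcript in every library, measured 9.10, 7.43 and 8.64 FPKM with the isotype and 7.21, 9.77 and 8.62 FPKM with DTA-1. Its log2 fold change of 0.02 had a 95% interval of -0.31 to 0.35.

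Among the Jun genes, all of which have a single exon, Junb varied most between replicates. Junb, whose product is a weaker activator than Jun and can pair with Batf, measured 394, 170 and 263 FPKM in isotype replicates 1 to 3 and 411, 305 and 285 FPKM in DTA-1 replicates 1 to 3. The isotype libraries spanned 2.32-fold, and 3.71% of the 862 genes that averaged 100 FPKM or more and were above 0 in any isotype library spanned as much among them. The difference between group means, 276 ± 112 and 334 ± 67.5 FPKM, was smaller than the spread within the isotype group (log2 fold change 0.34 ± 0.28, limma adjusted p = 0.673). It turned on which isotype library was included: it was 0.64 on the log2 scale when isotype replicate 1 was left out and 0.03 when isotype replicate 2 was. In GENCODE, the gene span of Junb overlaps Prdx2 at its 3′ end, but the longest coding transcript of Junb does not. Fosl1 overlaps Ccdc85b, and both overlaps are with a gene on the opposite strand. Since neither the use of strand nor the annotation behind the deposited values is known, the division of reads within each pair is uncertain.

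Neither Jun nor Jund had an interval that excluded 0. Jun, the founding partner of Fos, measured 8.96, 15.7 and 16.0 FPKM in isotype replicates 1 to 3 and 17.1, 16.5 and 15.1 FPKM in DTA-1 replicates 1 to 3. A single library, isotype replicate 1, stood low, and without it the log2 fold change went from 0.29 (95% interval -0.19 to 0.76) to 0.03. Jund, the least inducible Jun gene, measured 85.7, 74.8 and 116 FPKM with the isotype and 95.6, 103 and 93.7 FPKM with DTA-1 (log2 fold change 0.10, 95% interval -0.27 to 0.48). Antisense transcripts overlapping Jun (Junos) and Jund (Gm11175) are annotated in GENCODE and have no value here.

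**Figure D2:**
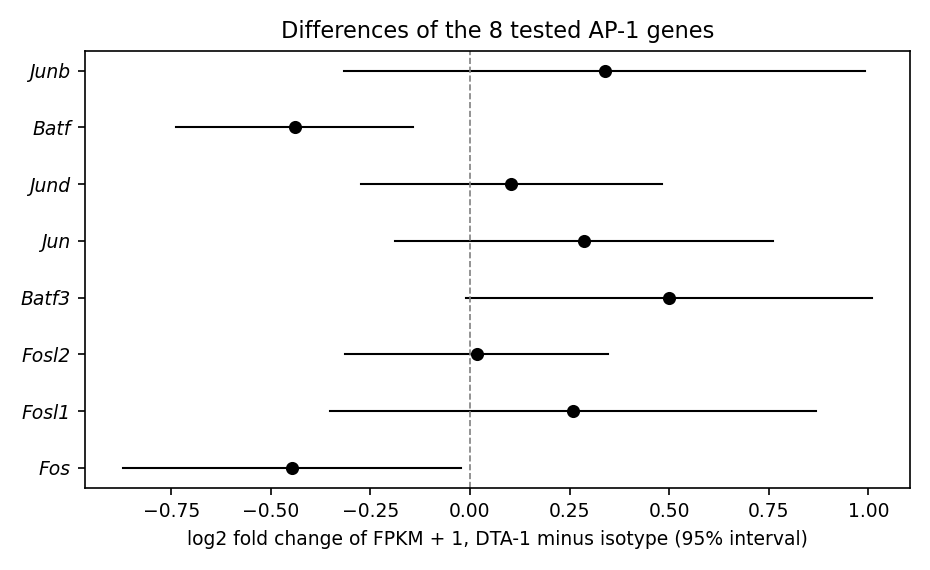
Log2 fold change of FPKM + 1 (DTA-1 minus isotype, horizontal axis) with its 95% interval from limma for the 8 tested AP-1 genes. The intervals of Batf (-0.74 to -0.14) and Fos (-0.87 to -0.02) lie below 0 before adjustment for the number of genes tested, and the other 6 include 0.

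The make-up of the family within each library does not depend on scaling between libraries. The 9 genes summed to 651 ± 86.3 FPKM with the isotype and 656 ± 61.9 FPKM with DTA-1. Batf made up 30.1%, 50.7% and 35.0% of this sum in isotype replicates 1 to 3 and 23.5%, 28.6% and 30.8% in DTA-1 replicates 1 to 3. The groups overlapped narrowly, because DTA-1 replicate 3 lay above isotype replicate 1. The mean share differed by -10.99 percentage points (2-sided exact permutation p = 0.2; 3 against 3 samples cannot give less than 0.1), and by -4.95 points without isotype replicate 2. Junb made up 53.4%, 30.1% and 40.6% of the sum with the isotype and 56.7%, 47.8% and 47.1% with DTA-1. Jun family genes together made up 66.2%, 46.0% and 61.0% with the isotype and 72.2%, 66.6% and 65.1% with DTA-1. The Fos family made up between 1.51% and 2.34% in every library, so Jun family transcripts outnumbered it per length throughout. The log2 ratio of the Fos to the Jun family sum was -4.86 ± 0.22 with the isotype and -5.13 ± 0.40 with DTA-1 (2-sided exact permutation p = 0.5), and the difference of -0.27 was -0.05 without DTA-1 replicate 1, -0.15 with isotype replicate 2 left out and -0.42 with DTA-1 replicate 2 left out.

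**Figure D3:**
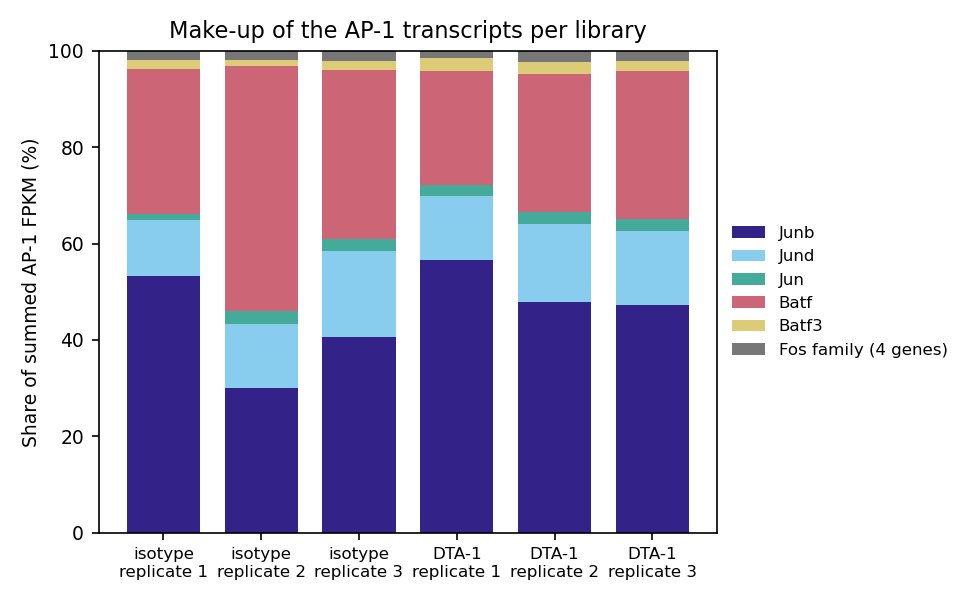
Share of each AP-1 gene in the summed FPKM of the 9 genes (stacked bars, percent), 1 bar per library, with the 4 Fos family genes joined. Isotype replicate 2 stands apart with 50.7% Batf and 30.1% Junb, and the DTA-1 libraries hold 23.5% to 30.8% Batf.

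Related bZIP genes that share dimers or DNA sites with AP-1 were read from a list of 18, of which 12 were tested. Here 1 gene passed, Atf3, a stress-induced factor that pairs with Jun proteins. It rose from 9.39, 11.8 and 10.7 FPKM in isotype replicates 1 to 3 to 31.5, 28.6 and 27.4 FPKM in DTA-1 replicates 1 to 3, and the increase of 1.38 ± 0.12 on the log2 scale passed in limma (adjusted p = 0.0116). Every DTA-1 library lay far above every isotype library. Its adjusted p was 0.0668 without isotype replicate 3, 0.0788, 0.0924 and 0.0725 without DTA-1 replicates 1, 2 and 3, and 0.0596 with no filter on low values, with log2 fold changes of 1.32 to 1.42. At an unadjusted p under 0.05, 2 of the 12 genes were higher and 3 lower, beside 6.22% and 7.73% of all tested genes. Jdp2, a repressor that binds AP-1 sites with Jun, measured 14.8, 29.7 and 22.5 FPKM in isotype replicates 1 to 3 and 14.6, 14.1 and 13.6 FPKM in DTA-1 replicates 1 to 3 (log2 fold change -0.58 ± 0.22, limma adjusted p = 0.291). Nfil3, needed for the development of innate lymphocytes, had means of 58.8 ± 6.29 and 33.5 ± 4.58 FPKM (adjusted p = 0.0856 by limma), and Maf, a regulator of Il10 and Il4, 57.2 ± 11.1 and 40.01 ± 2.44 FPKM. Nfe2l1, which drives proteasome genes, had 51.1 ± 7.42 and 72.5 ± 6.48 FPKM. Groups did not overlap for these 4 genes, as for 21.6% of all tested genes, and none of them passed. In other fits, 1 gene of this list was lower at the adjusted threshold with either replicate block. Of all 10501 tested genes, 126 were lower with the title number as the block and 76 with the library name number. With library quality weights 3 genes of the list were lower, beside 314 of all tested genes.

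Of 10 tested genes of transcription factors that cooperate with AP-1, 1 was higher and 1 lower at an unadjusted p under 0.05 (all tested genes: 6.22% and 7.73%). Irf4, the partner of Batf at composite sites, measured 162, 166 and 198 FPKM in isotype replicates 1 to 3 and 252, 234 and 227 FPKM in DTA-1 replicates 1 to 3. Every DTA-1 value lay above every isotype value, opposite to Batf (log2 fold change 0.44 ± 0.12, limma adjusted p = 0.163). Irf8, the alternative partner, was low at 1.36 ± 0.385 and 0.636 ± 0.0942 FPKM and was not tested. Ets1, which binds next to AP-1 at many lymphocyte enhancers, measured 87.5 ± 14.2 and 49.7 ± 4.92 FPKM (limma adjusted p = 0.0923). Runx1 (14.4 ± 1.55 and 12.6 ± 0.361 FPKM) and Stat3 (59.3 ± 8.01 and 66.2 ± 6.04 FPKM) followed by size of p. With library quality weights 1 gene of this list was lower at the adjusted threshold, beside 314 of all 10501 tested genes.

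No gene upstream of AP-1 passed. The 28 tested genes for MAP kinases, interleukin 33 receptor adaptors and factors that switch on Fos had a median log2 fold change of 0.04. At an unadjusted p under 0.05, 2 were higher and 0 lower (all tested genes: 6.22% and 7.73%). Traf6, the ubiquitin ligase that links the interleukin 33 receptor and TNF receptors to MAP kinases, was among them (15.8 ± 0.664 and 23.0 ± 4.33 FPKM, limma adjusted p = 0.179). Irak4, the kinase downstream of Myd88, measured 7.75 ± 1.68 and 5.77 ± 0.491 FPKM, and Map2k3, a kinase of p38, 40.2 ± 6.90 and 50.8 ± 5.72 FPKM. Among 8 tested genes for the turnover of AP-1 proteins and transcripts none passed. Of these 8, 0 had an unadjusted p under 0.05 (all tested genes: 14.0%). The RNA decay factors that bind the heptamer printed above measured 23.6 ± 6.97 and 16.8 ± 4.4 FPKM for Zfp36, 40.1 ± 3.46 and 54.0 ± 15.9 for Zfp36l1 and 142 ± 13.2 and 122.6 ± 5.93 for Zfp36l2. Smurf1, a ubiquitin ligase gene, measured 6.12 ± 0.646 and 6.89 ± 0.6099 FPKM.

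Genes known as AP-1 targets in textbooks had a median above 0, and none passed. Of 16 tested genes of a list of 27, 0 passed, while 7 were higher and 1 lower at an unadjusted p under 0.05 (all tested genes: 6.22% and 7.73%), with a median log2 fold change of 0.29. With any 1 library left out, 6 to 8 were higher and 1 lower at that p, beside 368 to 747 and 562 to 912 of all tested genes. At the adjusted threshold, 3 were higher and 1 lower with the title number as a replicate block, beside 59 and 126 of all 10501 tested genes. The library name number as the block also gave 3 and 1 (60 and 76 of all), and library quality weights 7 and 1 (161 and 314 of all). Leaving out DTA-1 replicate 1 gave 1 and 0 (1 and 1 of all). Csf2 (GM-CSF) measured 53.6, 67.2 and 78.5 FPKM with the isotype and 810, 338 and 313 FPKM with DTA-1 (limma adjusted p = 0.0641), and Il13, a driver of mucus production, 2326 ± 453 and 5422 ± 720.0 FPKM (limma adjusted p = 0.0663). Tnf had 28.5 ± 2.44 and 57.8 ± 14.5 FPKM and Lif, the lower gene, 68.2 ± 22.9 and 25.9 ± 1.58 FPKM. The others at that p were Il6, Cdkn1a, Cd44 and Il5. Several of these genes are also known targets of NF-kB, and the list does not separate the factors.

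**Figure D4:**
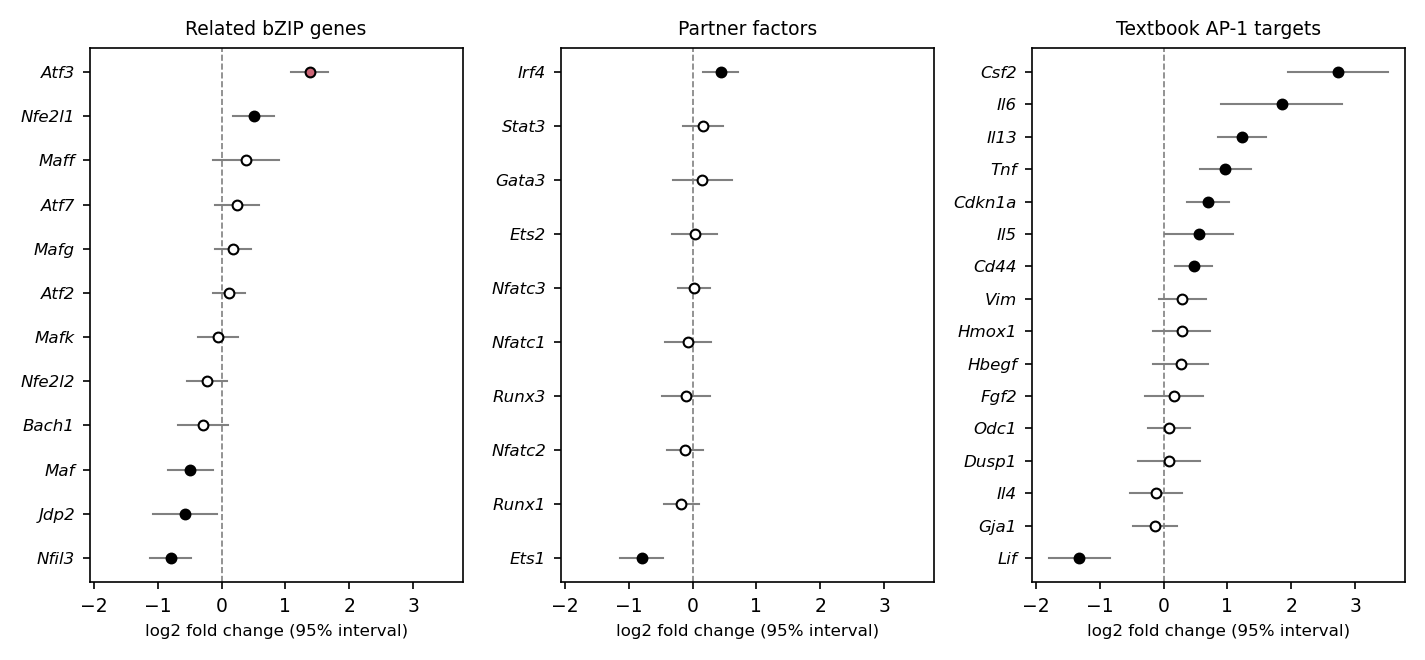
Log2 fold change of FPKM + 1 (DTA-1 minus isotype) with 95% intervals from limma for the tested genes of 3 lists; a red point passed an adjusted p of 0.05, black points had an unadjusted p under 0.05 and white points did not. Atf3 is the single red point, and Csf2, at 2.73, is the farthest from 0.

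Several AP-1 genes lie near another bZIP gene in the genome, with other annotated genes between them. On chromosome 12, Fos (85473890 to 85477273), Jdp2 and Batf lie in this order on the plus strand, with gaps of 122 kb between Fos and Jdp2 and 46.8 kb between Jdp2 and Batf. All 3 had lower means with DTA-1, and Tmed10, on the other side of Fos, measured 98.8 ± 2.16 and 96.5 ± 0.939 FPKM. On chromosome 1, Batf3 (191097847 to 191108945) and Atf3 are 61.4 kb apart on opposite strands, and both had higher means with DTA-1. On the other side of Batf3, Nsl1, a kinetochore gene 11.4 kb away, measured 6.81 ± 1.58 and 3.99 ± 0.0761 FPKM. Within 100 kb of any of the 9 genes 48 other genes were tested, of which 5 were higher and 5 lower at an unadjusted p under 0.05, beside 6.22% and 7.73% of all tested genes.

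Sequences before the RefSeq starts of Fos and Batf, the chromosome 12 members with the smallest p-values, were read from the RefSeq promoter table for GRCm38.p6, which held 8 of the 9 genes, all but Fosl1. Shown 5′ to 3′ are the bases before the annotated start, ended for Batf at the earlier start of GENCODE. Capitals mark matches to any motif searched on both strands in the 250 bases before the RefSeq start: TGANTCA (the AP-1 site), TGACGTCA (the CRE), TTCNNNGAA (the STAT site), GATAA (the GATA site), TATAAA, the CArG box and the kappaB motif.
Fos, chr12:85473640-85473889, plus strand: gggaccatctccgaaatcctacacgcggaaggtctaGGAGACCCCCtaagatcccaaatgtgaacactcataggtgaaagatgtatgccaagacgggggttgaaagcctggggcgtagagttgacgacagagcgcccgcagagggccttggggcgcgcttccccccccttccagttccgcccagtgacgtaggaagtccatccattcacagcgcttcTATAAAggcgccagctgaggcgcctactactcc
Batf, chr12:85686470-85686668, plus strand: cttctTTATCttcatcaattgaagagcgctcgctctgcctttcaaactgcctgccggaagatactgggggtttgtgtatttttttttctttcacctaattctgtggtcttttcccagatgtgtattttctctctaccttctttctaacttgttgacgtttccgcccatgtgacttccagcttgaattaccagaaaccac
TGANTCA, TGACGTCA and the CArG box had no match in any of the 8 windows, and 6.75%, 1.55% and 1.47% of all 32851 promoters in the table held them. Only exact matches within the windows were searched, so sites farther upstream or with other letters were not covered. The Fos window had a kappaB motif on the minus strand, which 3.9% of all promoters held on either strand, and a TATAAA (12.4%). Matches of kappaB were also found for Fosb and Fosl2, the latter an overlapping pair on both strands. RefSeq and GENCODE starts differ for several genes: the Fosl2 and Batf3 windows lie inside the GENCODE gene, and the Jund window ends well before its GENCODE start. The Batf window had GATAA on the strand opposite to the gene (22.6%), and the Jun window had GATAA on the strand of the gene. The Batf3 window had TTCNNNGAA (7.02%). These matches describe the letters only.

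The genes most like the most abundant members over the 6 libraries were found by Pearson's r of log2(FPKM + 1) among 8136 other tested genes with a mean of at least 5 FPKM. For Batf these were Ezh2 (r = 0.990), Mlf1 (0.988), Sgpp1 (0.985), Ppp2r2d (0.984) and Afg3l2 (0.984). Ezh2, the histone H3 lysine methyltransferase, measured 76.7, 121 and 81.1 FPKM in isotype replicates 1 to 3 and 50.1, 57.8 and 64.8 FPKM in DTA-1 replicates 1 to 3, so it shares with Batf the high isotype replicate 2 and low DTA-1 replicate 1. For Junb they were Gtse1 (0.997), Fam73b (0.994), Fam195a (0.992), Vps37c (0.992) and Anks1 (0.991). Gtse1 measured 81.5, 52.4 and 65.4 FPKM with the isotype and 82.0, 69.1 and 66.7 FPKM with DTA-1, with the same low isotype replicate 2 as Junb. These values of r describe 6 libraries that fall into 2 groups, and nothing about shared function was tested.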

How the data were processed

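RNA of 6 samples had been prepared from 1.3 ug of Trizol-extracted total RNA with a directional library kit, per the labels' protocols. The authors deposited 1 table per sample. Per the submitters' processing notes, TopHat and mm10 were used; which program computed the values, from which annotation and with which use of strand, is not given in the sources. The unit is not named in the file headers. FPKM was inferred from the deposited values: they are fractional, their totals differ between libraries, and the smallest steps between values shrink with transcript length. Those steps gave the depth.

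A gene was tested if 3 or more libraries had 1 FPKM or more (10501 genes). The test was limma 3.58.1 (R 4.3.3) applied to log2(FPKM + 1) (trend and robust moderation, group as the only term, 2-sided, Benjamini-Hochberg over all tested genes, threshold 0.05), a procedure tested on simulated data. The simulated noise was independent between genes, so effects shared by many genes of a library were not covered. Ratios within libraries were compared by exact permutation in SciPy 1.17.1, and plots were made in Python 3.11.15 using matplotlib 3.10.9. Gene models were those of GENCODE M21, and 3′ UTRs and coding stretches come from the longest coding transcript. Groups and replicate numbers were read from titles. For replicates 2 and 3 the antibody name in the treatment tag has a running number that disagrees with the title, and those tags were set aside. Members and lists were chosen with earlier results of these data known. Named genes are all members; in each list any gene that passed, and in a list where none did, the 4 genes of smallest p; Jdp2, Atf3 and Irf4; neighbours within 100 kb; the 5 genes most like each of the 2 most abundant members; and the top marker of each other cell type. Nfil3, Maf, Nfe2l1, Il6, Cdkn1a, Cd44, Il5, Irf8, Gata3, Il1rl1 and Klrg1 were named after their values were seen. One gene that this rule names in the upstream list is not reported here. A further list of 9 stress response genes had 7 tested, 1 higher and 0 lower at an unadjusted p under 0.05 (all tested genes: 6.22% and 7.73%).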

Additional observations from a re-analysis of the deposited data

How the results depend on the processing

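No AP-1 gene passed the threshold under any of the 18 alternatives run (pseudocounts, filters, scalings, blocks, weights, moderation, leaving out each library). Batf and Fos stayed lower and Batf3 and Junb higher in every alternative that gave a value; Fos and Fosl1 had none with a mean of at least 5 FPKM. Fosl2 reversed to -0.0127 with libraries scaled to equal totals and Jund to -0.0596 with library quality weights. With 1 library left out, log2 fold changes ran from -0.0755 to 0.12 for Fosl2, -0.0596 to 0.52 for Fosl1 and -0.0324 to 0.28 for Jund. Over all genes, 3 were higher and 1 lower; 1 was higher with no filter, 2 were lower with scaling to equal totals or by upper quartile, and 161 were higher and 314 lower with quality weights. With 1 library left out, 0 to 3 were higher (0 when DTA-1 replicate 2 or 3 was the one left out, 1 when it was isotype replicate 3 or DTA-1 replicate 1) and 0 to 1 lower (0 without any one isotype library). The cause of these shifts was not tested.

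Whether same-numbered samples were paired is not known. Their deviations from the group means correlated at 0.393, -0.101 and -0.129 across genes. With 3 libraries per group the deviations are tied to each other, so these correlations cannot settle it. Among differently numbered pairs, isotype replicate 2 with DTA-1 replicate 3 gave 0.485 and isotype replicate 3 with DTA-1 replicate 2 gave 0.385; no label supports that matching, and it was not fitted. Counts of list genes under each setting were added after seeing the data. With the title number as a replicate block, 59 genes were higher and 126 lower, and with the number of the library name as the block, which compares only replicates 2 and 3 of each group, 60 and 76; no AP-1 gene passed in either block fit, and Jun reversed to -0.0034 in the latter. Depth limits Fosb and Fos most, at 12 to 18 and 24 to 77 fragments per library.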

Other observations

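The genes around the AP-1 loci were listed with their levels. Near Fosb, Eml2, Opa3, Vasp, Ercc1, Cd3eap, Ppp1r13l, Ercc2 and Klc3 were tested and spanned 0.824 to 104 FPKM, with Eml2 (28.5 ± 5.82 with the isotype and 36.9 ± 1.498 FPKM with DTA-1) and Ercc1 (19.3 ± 3.23 and 25.6 ± 2.62 FPKM) higher at an unadjusted p under 0.05. Near Fosl1, Banf1, Eif1ad, Sart1, Drap1, AI837181, Ccdc85b, Fibp, Ctsw, Efemp2, Mus81 and Cfl1 spanned 0.861 to 1130 FPKM, and none had such a p. Fosl2 had no tested neighbour, and Jun had Mysm1 (9.32 ± 1.81 and 8.69 ± 0.901 FPKM).

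Near Junb, Syce2 (32.4 ± 6.88 and 20.0 ± 2.15 FPKM) and Dnase2a (4.47 ± 0.584 and 3.29 ± 0.151 FPKM) were lower and Fbxw9 (20.8 ± 4.79 and 28.9 ± 1.72 FPKM) higher at an unadjusted p under 0.05. Gcdh, Rnaseh2a, Prdx2, Hook2, Asna1, Tnpo2, A230103J11Rik, Dhps and Wdr83 had no such p, and these 12 genes spanned 1.02 to 205 FPKM. Near Jund, Lrrc25 (2.96 ± 2.12 and 1.05 ± 0.255 FPKM) was lower and Pgpep1 (3.17 ± 0.626 and 4.52 ± 0.889 FPKM) higher at that p. Ssbp4, Lsm4, Rab3a, Mpv17l2, Ifi30, Pik3r2, 2010320M18Rik and Mast3 had no such p. Near Batf3, A230020J21Rik (4.57 ± 0.485 and 5.48 ± 0.563 FPKM) and Tatdn3 (2.83 ± 0.471 and 3.50 ± 0.460 FPKM) had none either.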
